A study of Sus scrofa with 9 samples.

Results

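Elastin and the genes that build it into elastic fibres were examined in pig outflow veins, the vein segments that drain an arteriovenous fistula (AVF, a surgical artery-to-vein join for dialysis). The 10 genes were those of the deposited table, out of 30477 in all, whose symbol was ELN, FBN1, FBLN5, LTBP2, LTBP4, MFAP4, MFAP5, LOX, LOXL1 or EFEMP2. They were chosen by their levels in these same libraries, with the difference between treated and control veins already known, so that difference is described below and carries no test. All 10 were in the table, and all 10 passed the filter on low values.

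Every vein came from a pig given a chronic kidney disease model, with a carotid-to-jugular fistula made 28 days afterwards and the vein taken 28 days after the fistula. The MSC group (6 libraries) had adipose-derived mesenchymal stem cells in ringer lactate laid over the adventitia, the outer coat of the vein, right after the fistula was made. The control group (3 libraries) was untreated, so the carrier fluid alone was not given to any group named in the labels. Each RNA-seq library took 0.5 µg of total RNA. Tags with no explanation in the labels stand in 2 library names, NT and F for control 2, and Allo and M for MSC 1. The labels do not say that the libraries are separate animals, and any p-value here measures the spread between libraries, which may be technical in part.

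Elastic fibres give vessel walls their recoil. Cells secrete tropoelastin, which gathers on a scaffold of fibrillin microfibrils with the help of fibulins and is then fixed by lysyl oxidases, enzymes that cross-link lysines. Smooth muscle cells make most of the elastin of the arterial media, fibroblasts make fibrillin microfibrils as well, and veins hold less elastin than arteries. Latent TGF-beta binding proteins tie the fibre to growth factor storage.

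The libraries were uneven. Reads assigned to genes ran from 16939157 in MSC 2 to 47417606 in MSC 5, and small non-coding RNA made up 6.75% to 16.4% of them except for 53.3% in MSC 6 and 40.4% in control 2. MSC 2 had reads on 94.5% of genes. Sequencing lane 7 held MSC 2, MSC 5 and MSC 6 and no control. The Y-linked genes EIF1AY and KDM5D together had 0 or 1 read in each control and 0 in MSC 3, but 571 to 5640 in each of the other MSC libraries. Markers of the labelled tissue were present in every library, with the smooth muscle genes ACTA2 and MYH11 and the endothelial genes PECAM1 and CDH5 above 0 throughout. Of these, ACTA2, MYH11 and PECAM1 overlap other genes, so their reads are uncertain. Over the 17884 genes tested, limma called 0 at an adjusted p under 0.05 (0%), and 729 genes (4.08%) had an unadjusted p under 0.05. Lane entered the model in an alternative fit only. Since lane 7 held no control, MSC 2, MSC 5 and MSC 6 gave nothing to the difference in that fit. Beyond that fit and the values given without the libraries concerned, the parts that lane and small RNA play below were not tested. Y-linked reads went with the MSC group in every library but MSC 3, so the 2 can hardly be told apart. No alternative left out all the libraries with Y-linked reads, and the part of these reads was not tested.

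All 10 genes had a higher mean log2 level in MSC veins than in controls, but in only some of them did the groups separate. Levels are RPKM (reads per length of gene and per depth of library) divided by a scaling factor per library, called scaled RPKM. Differences are of log2(scaled RPKM + 1), MSC minus control, a scale that understates the change of low genes. The median difference of the 10 genes was 1.38, and that of all genes tested was 0.04, with 55.3% of all genes positive. In ELN, FBN1 and LTBP2 every MSC library lay above every control, which 1.97% of all genes tested did; another 1.97% lay wholly below, and none of the 10 did. Nothing is read from these counts, because the same contrast chose the genes. The separation also depended on scaling, and so did its count over the 17884 genes tested, which was 352 above and 352 below as reported. For RPKM as deposited it held in 0 of the 10, beside 158 of all genes above and 147 below. With median-of-ratios factors it held in 4, beside 400 above and 288 below. With trimmed-mean factors over all genes it held in 2, without LTBP2, beside 203 above and 484 below.

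**Figure D1:**
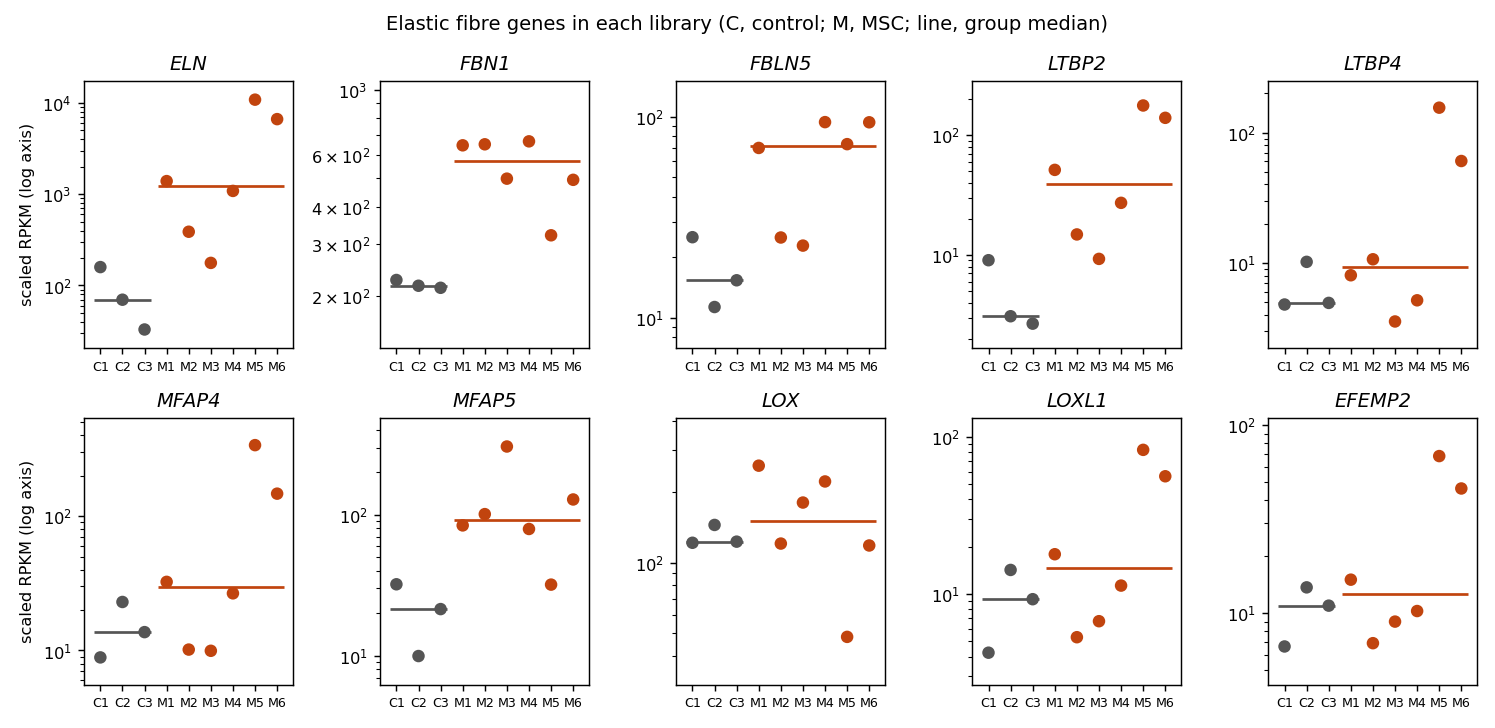
Scaled RPKM (log axis) of the 10 elastic fibre genes in each library; grey points are the 3 controls, orange points the 6 MSC libraries, and lines the group medians. ELN runs from 32.9 in control 3 to 10881 in MSC 5, and LOX is lowest in MSC 5 at 48.3.

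ELN encodes tropoelastin, the elastic core of the fibre (ENSSSCG00000025858, chromosome 3, 11214073 to 11244897, as the deposited table gives it). Its level was 159 scaled RPKM in control 1, 69.8 in control 2 and 32.9 in control 3. In the MSC veins it was 1393 in MSC 1, 388 in MSC 2, 177 in MSC 3, 1088 in MSC 4, 10881 in MSC 5 and 6657 in MSC 6. MSC 5 and MSC 6 stood far above the rest, and MSC 3 only just above control 1. The groups did not overlap on this scale, but they did with RPKM as deposited, where the lowest MSC value was 201 and the highest control value 229. The control mean was 87.3 ± 64.9 scaled RPKM (SD, n = 3), the mean of MSC veins 3431 ± 4368 (SD, n = 6), and the MSC median was 17.8-fold the control median. Without control 1 the former was 51.4, and without MSC 5 the latter was 1940.

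The spread of ELN among MSC veins was larger than the step between groups: MSC 5 was 61.5-fold above MSC 3, while controls spanned 4.83-fold. The log2 difference was 4.27 ± 1.26 (SE), and 2.97 without MSC 5 and MSC 6. In these bulk samples, fewer cells of a type and less RNA per cell cannot be told apart. ELN reads were 2.08% of all assigned reads in MSC 5 and between 0.00931% and 0.0544% in the controls. Of the summed level of the 10 genes, ELN made up 7.36% to 26.6% in controls, 14.5% in MSC 3 and 89.4% in MSC 5.

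FBN1 encodes fibrillin-1, the main protein of the microfibril scaffold (ENSSSCG00000004658, chromosome 1, 123102009 to 123359649). Its controls were close together, at 227 scaled RPKM in control 1, 217 in control 2 and 213 in control 3. The MSC libraries ran from 321 in MSC 5, through a median of 573, to 668 in MSC 4. Every MSC library exceeded the highest control, and the library highest for ELN was the lowest of them for FBN1. The log2 difference was 1.27 ± 0.46 (SE), the MSC median was 2.65-fold the control median, and the MSC libraries spanned only 2.08-fold. In RPKM as deposited the groups overlapped, with 201 in the lowest MSC library and 326 in the highest control.

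MFAP5, a small glycoprotein bound to fibrillin microfibrils (ENSSSCG00000031712, chromosome 5, 62742315 to 62759190), had another order of libraries. Control levels were 32.1, 9.95 and 21.4 scaled RPKM in controls 1 to 3. MSC levels ran from 32.0 in MSC 5, through a median of 92.6, to 305 in MSC 3. MSC 3, the lowest MSC library for ELN, was the highest for MFAP5, and MSC 5 lay just under control 1. The log2 difference was 2.29 ± 0.63 (SE), and 2.59 without MSC 5 and MSC 6.

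MFAP4, a glycoprotein found along elastic fibres (ENSSSCG00000036007, chromosome 12, 60137566 to 60144201), overlaps MAPK7 in the table, so its reads are uncertain. It stood at 8.88, 23.0 and 13.7 scaled RPKM in controls 1 to 3. MSC levels ran from 9.95 in MSC 3, through a median of 29.6, to 339 in MSC 5, with 147 in MSC 6. MSC 1 and MSC 4 lay a little above control 2, and MSC 2 and MSC 3 within the control range. The log2 difference of 1.48 ± 1.03 (SE) was 0.27 without MSC 5 and MSC 6, and the MSC mean of 94.2 was 45.3 without MSC 5.

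LTBP2 encodes a fibrillin-like protein of microfibrils (ENSSSCG00000002368, chromosome 7, 97745396 to 97852502), and it overlaps a pseudogene in the table. Its level was 9.04 scaled RPKM in control 1, 3.08 in control 2 and 2.67 in control 3. Across the MSC libraries it was 51.3, 14.8, 9.27, 27.2, 177 and 139 in MSC 1 to MSC 6. All 9 libraries came in the same order as for ELN, and the lowest, MSC 3, cleared control 1 by a small margin that was lost with factors over all genes. The log2 difference was 3.0 ± 0.88 (SE), the MSC median was 12.8-fold the control median, and without MSC 5 and MSC 6 the difference was 2.06.

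LTBP4, which binds fibulin-5 and latent TGF-beta (ENSSSCG00000033760, chromosome 6, 48831014 to 48861507), stood at 4.81, 10.2 and 4.95 scaled RPKM in controls 1 to 3. MSC levels ran from 3.57 in MSC 3, through a median of 9.38, to 155 in MSC 5, with 60.5 in MSC 6. Apart from MSC 5 and MSC 6, the groups overlapped almost fully. The log2 difference of 1.26 ± 1.03 (SE) was 0.02 without those libraries, and −0.20 in lanes 5 and 6 alone, the lanes with both groups. The MSC mean of 40.5 was 17.6 without MSC 5.

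FBLN5 encodes fibulin-5, which brings elastin to the microfibril and to cell-surface integrins (ENSSSCG00000002444, chromosome 7, 113423629 to 113522069). Its level was 25.2, 11.3 and 15.4 scaled RPKM in controls 1 to 3. In MSC 1 to MSC 6 it was 69.9, 25.1, 22.9, 93.9, 73.0 and 93.7. MSC 1, MSC 4, MSC 5 and MSC 6 stood above all controls by a wide margin, while MSC 2 and MSC 3 lay between control 3 and control 1. The log2 difference was 1.67 ± 0.53 (SE), and 1.38 without MSC 5 and MSC 6.

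EFEMP2 encodes fibulin-4, which binds lysyl oxidase to tropoelastin (ENSSSCG00000012971, chromosome 2, 6450332 to 6463493). It overlaps CTSW and MUS81, and its reads are uncertain. It stood at 6.64, 13.7 and 10.9 scaled RPKM in controls 1 to 3. MSC levels ran from 6.91 in MSC 2, through a median of 12.6, to 68.5 in MSC 5, with 46.0 in MSC 6. MSC 5 and MSC 6 stood apart, MSC 1 was just above control 2, and the remaining libraries mixed with the controls. The log2 difference of 0.78 ± 0.68 (SE) was −0.01 without MSC 5 and MSC 6. The MSC mean of 25.9 scaled RPKM was 17.4 without MSC 5.

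LOX encodes lysyl oxidase, the founding cross-linking enzyme (ENSSSCG00000014232, chromosome 2, 125593116 to 125607594), and it was split within the MSC group. Control levels were 121, 145 and 123 scaled RPKM in controls 1 to 3. In MSC 1 to MSC 6 they were 258, 120, 180, 221, 48.3 and 118. MSC 1, MSC 3 and MSC 4 lay above all controls and MSC 2, MSC 5 and MSC 6 below all of them. These are also the libraries of lanes 5 and 6 and of lane 7, in that order. The log2 difference was 0.10 ± 0.53 (SE), 0.75 in lanes 5 and 6 alone and 0.83 with lane as a covariate. Lane 7 has no control, so the last 2 values rest on the same libraries, those of lanes 5 and 6. The log2 difference of LOX was below 0 without MSC 1, without MSC 4, with factors over all genes and with RPKM as deposited, where it was −0.08.

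LOXL1 encodes a lysyl oxidase needed in mice to renew elastic fibres (ENSSSCG00000001914, chromosome 7, 59481412 to 59505149), and it overlaps INSYN1. It stood at 4.24, 14.2 and 9.28 scaled RPKM in controls 1 to 3. MSC levels ran from 5.32 in MSC 2, through a median of 14.6, to 82.5 in MSC 5, with 56.1 in MSC 6. MSC 1 was above the highest control too, and the other 3 MSC libraries lay inside the control range. The log2 difference of 1.06 ± 0.82 (SE) was 0.14 without MSC 5 and MSC 6, and the MSC mean of 30.0 was 19.5 without MSC 5.

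**Figure D2:**
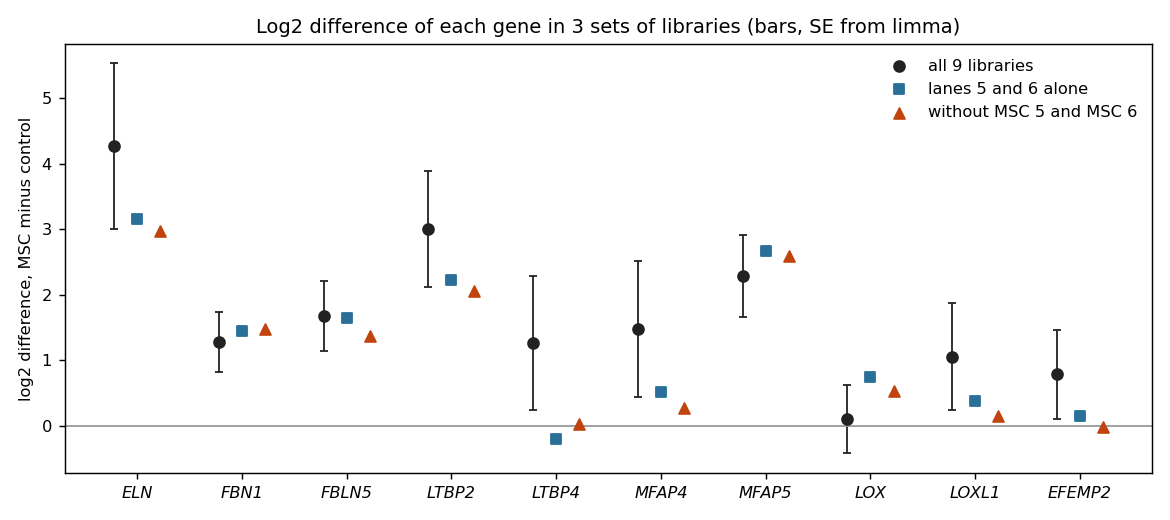
Log2 difference, MSC minus control, of each elastic fibre gene with all 9 libraries (circles, with SE from limma), in lanes 5 and 6 alone (squares) and without MSC 5 and MSC 6 (triangles). ELN, FBN1, FBLN5, LTBP2 and MFAP5 stay above 1 in all 3 sets, while LTBP4 is −0.20 in lanes 5 and 6 and EFEMP2 −0.01 without MSC 5 and MSC 6.

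The genes thus fell into patterns by library. MSC 5 held the highest level of 6 of the 10 genes (60.0%), as it did for 31.7% of all genes tested; MSC 4 held 2, MSC 1 held 1 and MSC 3 held 1. Likeness of pattern was measured as the mean absolute difference of 2 log2 profiles over the 9 libraries, each less its own mean. The closest pairs were LOXL1 with EFEMP2 (0.28), MFAP4 with LOXL1 (0.36) and LTBP4 with MFAP4 (0.42). ELN was closest to LTBP2 (0.67) and farthest from LOX (2.35). FBN1 was closer to LOX (0.58) than to ELN (2.01). The libraries share depth and scaling, and no test was made.

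Ratios of 2 genes within a library do not depend on the scaling factor, and RPKM allows for gene length. The level of ELN relative to FBN1 was 0.702 in control 1, 0.322 in control 2 and 0.154 in control 3. It was 2.15 in MSC 1, 0.595 in MSC 2, 0.354 in MSC 3, 1.63 in MSC 4, 33.9 in MSC 5 and 13.5 in MSC 6. More elastin than fibrillin-1 message per length was therefore present in 4 of the 6 MSC libraries and in 0 of the 3 controls, and the groups overlapped through MSC 2 and MSC 3.

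The level of LOXL1 relative to LOX was 0.0350 to 0.0985 in controls and 0.0374 to 0.0693 in MSC 1 to MSC 4. In MSC 5 it was 1.71 and in MSC 6 0.474, so those libraries were the nearest to equal levels of the enzymes. For MFAP4 relative to MFAP5 the controls ran from 0.276 to 2.31, and the MSC libraries from 0.0326 in MSC 3 to 10.6 in MSC 5. LTBP4 relative to LTBP2 was 0.533, 3.32 and 1.85 in controls 1 to 3 and 0.157 to 0.878 in the MSC libraries, with overlap through control 1. These ratios were chosen after the values were seen.

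**Figure D3:**
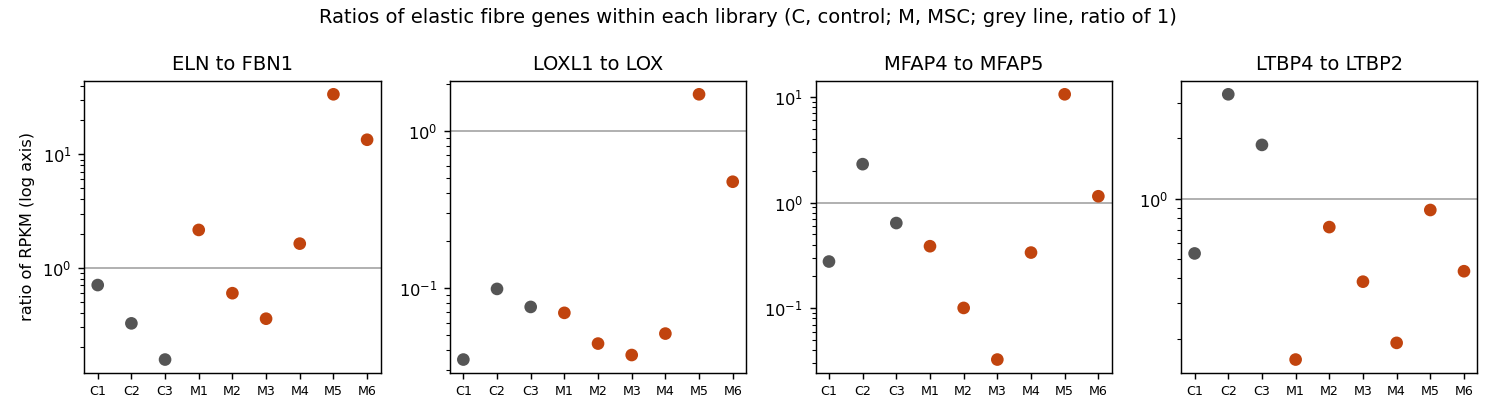
Ratios of RPKM (log axes) of ELN to FBN1, LOXL1 to LOX, MFAP4 to MFAP5 and LTBP4 to LTBP2 in each library; grey points are controls, orange points MSC libraries, and the grey line marks a ratio of 1. MSC 5 is highest in the first 3 ratios, at 33.9, 1.71 and 10.6.

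The summed smooth muscle markers, like ELN, were highest in MSC 5 and MSC 6. In MSC 3 the sum was below every control, while ELN was above every control on this scale but not with RPKM as deposited. The list had 14 of its 15 genes in the table, 13 of them with a positive difference and none at 0. In 0 of the 14 did every MSC library lie above every control. Among controls the summed level was 639 to 750 scaled RPKM, while ELN ran from 32.9 to 159. In MSC veins the sum ran from 306 in MSC 3, through a median of 1761, to 8231 in MSC 6, with 7538 in MSC 5. ACTA2, the smooth muscle actin, was at 203 to 282 in controls, and at 71.0 in MSC 3 and 2194 in MSC 5; it overlaps STAMBPL1. For every 100 units of summed smooth muscle markers, ELN had 21.2, 10.9 and 4.75 units in controls 1 to 3. In MSC 1 to MSC 6 it had 58.9, 37.1, 57.8, 94.2, 144 and 80.9 units. Relative to these markers, ELN also lay above all controls in 6 of 6 MSC libraries, with less spread within the group than in its level. The make-up of the sum differed by library: CALD1 was 195 of 639 in control 2 and 102 of 306 in MSC 3, but 108 of 8231 in MSC 6. ELN was chosen by this same contrast, so nothing is read from the separation.

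LTBP2 also lay above all controls in every MSC library relative to these markers, with 0.385 to 1.21 units in controls and 1.42 to 3.03 in MSC libraries. Of all genes tested, 15 (0.0839%) had this separation, and 8 of the 10 elastic fibre genes did not. The choice of the marker sum was made after the values were seen. Set against single markers instead, ELN was above all controls in every MSC library for 8 of the 14, and LTBP2 for 5 of the 14. MYH11, the smooth muscle myosin heavy chain, which overlaps NDE1, was among those for which neither separated. No share over all genes is given for single markers, so nothing is read from these counts.

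MFAP5 was highest in MSC 3, where the summed adventitial fibroblast markers were highest too. The adventitial fibroblast list had 10 of 11 genes in the table, 6 with a positive difference and none at 0; FBLN1, one of them, is also on the list of other structural genes. Its summed level was 1158 to 1400 scaled RPKM in controls and ran from 991 in MSC 6 to 3776 in MSC 3. Most of the sum in MSC 3 was DCN (2520) and LUM (837), proteoglycans of the collagen matrix. Of the 10 markers, PDGFRA, DCN and LUM were highest in MSC 3, but PI16, CD34, COL15A1 and FBLN1 in MSC 5 and the rest elsewhere. The macrophage sum was highest in MSC 3 as well, at 1195 scaled RPKM, against 206 to 585 in the other MSC libraries and 245 to 377 in controls. All 8 macrophage markers were in the table, 5 with a positive difference and none at 0. For every 100 units of summed adventitial fibroblast markers, MFAP5 had 2.77, 0.753 and 1.53 units in controls 1 to 3, and 2.95 in MSC 5 to 13.0 in MSC 6. Every MSC library exceeded the highest control, as for 43 of all genes tested (0.24%), and as for none of the other elastic fibre genes. Against single adventitial fibroblast markers this held for 5 of the 10, a count with no share over all genes beside it, from which nothing is read. The arterial endothelium sum was 11.0 to 24.8 in controls and 14.6 to 118 in MSC veins, highest in MSC 5, and the venous sum 28.2 to 36.9 and 19.1 to 56.9. How far cell make-up enters the levels of the elastic fibre genes was not tested.

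**Figure D4:**
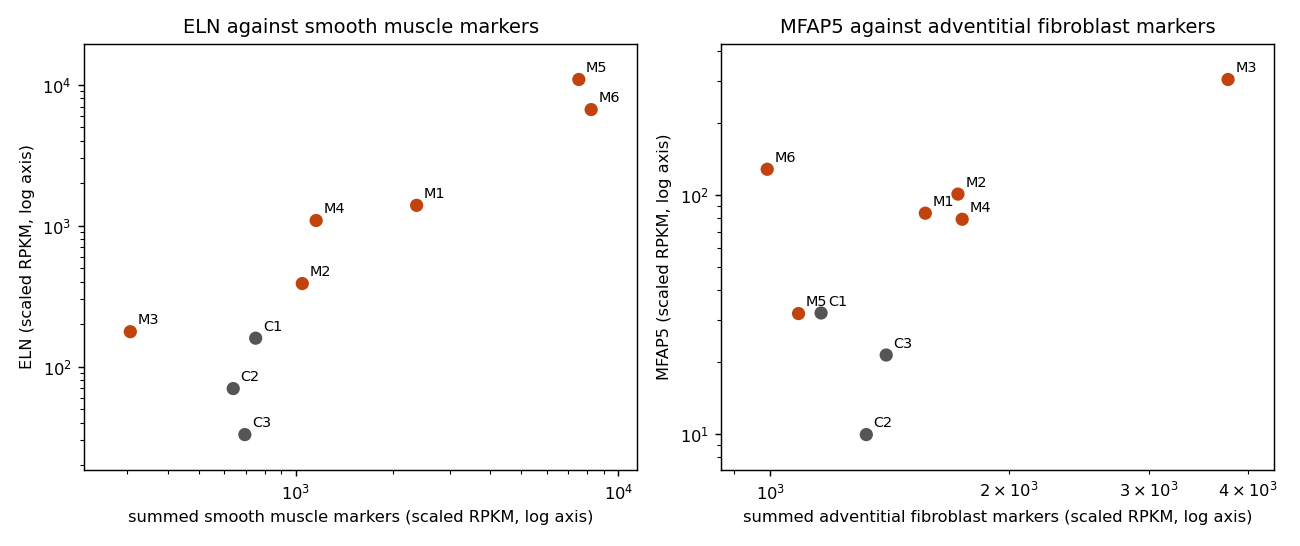
Left, ELN against summed smooth muscle markers, and right, MFAP5 against summed adventitial fibroblast markers, in scaled RPKM on log axes; each point is a library (C, control, grey; M, MSC, orange). MSC 3 has the lowest smooth muscle sum, 306, with ELN at 177, and the highest fibroblast sum, 3776, with MFAP5 at 305.

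The genes with profiles most like those of ELN and LOX were looked up among 10313 other protein-coding genes, by the same measure over the 9 libraries. Nearest to ELN, after LTBP2, were CCN3, a secreted matricellular protein (0.70), ACTG2, the enteric smooth muscle actin (0.89), DES, the muscle intermediate filament desmin (1.02), and TPM2, a tropomyosin (1.03). CCN3 stood at 35.9, 8.13 and 6.75 scaled RPKM in controls 1 to 3, and at 38.9 in MSC 3 to 473 in MSC 5. ACTG2, DES and TPM2 are also on the smooth muscle list. On this scale, and unlike ELN, they did not exceed every control in MSC 3. There ACTG2 (3.79 scaled RPKM) and TPM2 (24.2) were below all controls and DES (0.718) was inside the control range. ELN in MSC 3 was only just above control 1 (177 against 159 scaled RPKM), and below it with RPKM as deposited. Nearest to LOX were LRRC58 (0.15), CENPI, a centromere protein (0.17), ARMC1 (0.17), GPSM2, a spindle orientation protein (0.17), and SMURF2, a ubiquitin ligase (0.18). All 5, like LOX, had their lowest level in MSC 5. Their distances are smaller than those for ELN, and so was the spread of LOX itself.

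Other genes of the elastic fibre, tested over all genes, gave 0 calls. Of 67 listed, 63 were in the table and 58 were tested, with a median log2 difference of 0.21, 34 positive and 24 negative. That median was 0.06 without MSC 5 and 0.02 without MSC 5 and MSC 6. At an unadjusted p under 0.05 there were 9 (15.5%), 6 higher and 3 lower, beside 4.08% of all genes. Limma-voom on the recovered reads also called 0, with 8 at an unadjusted p under 0.05. The lists were chosen with earlier results of these data known, so nothing is read from these counts or from those by role below. MSC 5 held the highest level of 28 of the 58. Every MSC library lay above every control in 3 of the 58 and below every control in 1, beside 1.97% of all genes tested in each direction.

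Other structural proteins of the fibre numbered 14 tested, 11 positive, with a median of 0.52. FBLN2, fibulin-2 of the vessel wall, stood at 8.12, 17.0 and 10.6 scaled RPKM in controls 1 to 3 and at 12.8 in MSC 2 to 99.6 in MSC 5. Its log2 difference was 1.62 ± 0.56 (SE; limma adjusted p of 0.885, higher than every control in 5 of 6 libraries). TNXB, a tenascin, had 1.20 ± 0.77 and BGN, the proteoglycan biglycan, 1.04 ± 0.91, each with a limma adjusted p of 0.920 and each overlapping another gene. Without MSC 5 and MSC 6 these were 0.35 for TNXB and 0.10 for BGN; TNXB had 0.79 without MSC 6 alone and BGN 0.52 without MSC 5 alone. VCAN, the proteoglycan versican, named here after its values were seen, was below every control in 6 of 6 MSC libraries, as were 1.97% of all genes tested. It was at 112 to 138 scaled RPKM in controls and 30.1 to 106 in MSC veins. Its log2 difference was −1.01 ± 0.43 (SE; limma adjusted p of 0.920).

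Cross-linking and maturation genes numbered 12 tested, 5 positive, with a median of −0.06. LOXL3 was at 2.70 to 2.74 scaled RPKM in controls and 3.41 to 12.0 in MSC veins, and LOXL4 at 0.240 to 0.390 and 0.452 to 3.65. Both lysyl oxidase relatives were above every control in 6 of 6 libraries, as were 1.97% of all genes tested. Their log2 differences were 0.71 ± 0.36 and 0.76 ± 0.31 (SE, limma adjusted p of 0.920 each), and LOXL3 overlaps HTRA2 and AUP1. Without MSC 5 and MSC 6 the differences were 0.37 for LOXL3 and 0.49 for LOXL4. ATP7A, the pump that gives lysyl oxidases their copper, had −0.64 ± 0.48 (SE; limma adjusted p of 0.920), was lowest in MSC 5 at 1.07 scaled RPKM, and overlaps COX7B. Its difference was −0.35 without MSC 5.

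The fibrillin-associated ADAMTS family had 8 tested genes, all positive, as were 55.3% of all genes tested. Their median was 0.69, and the lowest was ADAMTS17 at 0.03. An unadjusted p under 0.05 was found for 3 of them, beside 4.08% of all genes. The list was chosen with earlier results of these data known, so nothing is read from these counts. ADAMTSL4, which promotes fibrillin-1 deposition, was at 2.35 to 3.07 scaled RPKM in controls and 4.28 to 25.7 in MSC veins. It was above every control in 6 of 6, as were 1.97% of all genes tested. Its log2 difference was 1.30 ± 0.52 (SE; limma adjusted p of 0.920). ADAMTSL5 had 1.59 ± 0.69 and THSD4, another fibrillin-1 binding protein, 0.98 ± 0.44, each above every control in 5 of 6 libraries and each with a limma adjusted p of 0.920. Without MSC 5 and MSC 6 the differences were 0.72 for ADAMTSL4, 0.85 for ADAMTSL5 and 0.63 for THSD4, and MSC 5 held the highest level of 6 of the 8 genes.

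Elastin-degrading proteases had 8 tested genes, 2 positive, with a median of −0.26. MMP2, gelatinase A, was at 158 to 480 scaled RPKM in controls and 112 to 667 in MSC veins, with a difference of −0.47 ± 0.64 (SE). That value moved with single libraries, from −0.94 without control 1 and −0.79 without MSC 5 to −0.34 without control 3, −0.28 without MSC 3 and −0.14 without control 2. MMP9, gelatinase B, was at 1.18 to 2.56 and 0.110 to 1.51, with −0.70 ± 0.32. CTSS, the macrophage protease cathepsin S, had −0.86 ± 0.64, was highest in MSC 3 at 180 scaled RPKM, and overlaps ARNT. The macrophage marker sum was highest in MSC 3 too, as given above, and its part in the level of CTSS was not tested. The CTSS difference was −0.51 without MSC 5, and −0.24 without MSC 5 and MSC 6. The limma adjusted p was 0.920 for all 3, and 0 of the 8 had an unadjusted p under 0.05.

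Their inhibitors had 8 tested genes, 6 positive, with a median of 0.46. TIMP3, the matrix-bound metalloproteinase inhibitor, was at 72.0, 18.6 and 37.0 scaled RPKM in controls 1 to 3 and 63.1 to 113 in MSC veins, with 1.15 ± 0.42 (SE), and 0.67 without control 2; it overlaps SYN3. SLPI, an inhibitor of leukocyte elastase, had 1.42 ± 0.74, and A2M, a broad protease trap, −1.93 ± 1.16, with a level of 129 scaled RPKM in MSC 5 against 2.15 to 7.09 in the other MSC libraries. A2M was also at 118 scaled RPKM in control 1, with a control mean of 48.9, and of 14.4 without it. The A2M difference was −0.94 without control 1 and −2.95 without MSC 5 and MSC 6. Each had a limma adjusted p of 0.920.

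Cell receptors that bind the fibre had 8 tested genes, 2 positive, with a median of −0.21. ITGAV, the integrin chain that binds RGD sites in fibrillin-1 and fibulin-5, was at 51.7 to 79.3 scaled RPKM in controls and 19.4 to 60.4 in MSC veins, with −0.85 ± 0.37 (SE). ITGB8, a partner of ITGAV in freeing TGF-beta, had −0.86 ± 0.34, and it overlaps a pseudogene. SDC2, the cell-surface proteoglycan syndecan-2, had −0.77 ± 0.37. Without MSC 5 and MSC 6 the differences were −0.56 for ITGAV, −0.60 for ITGB8 and −0.56 for SDC2. Below every control were 5 of 6 MSC libraries for each, with a limma adjusted p of 0.920.

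**Figure D5:**
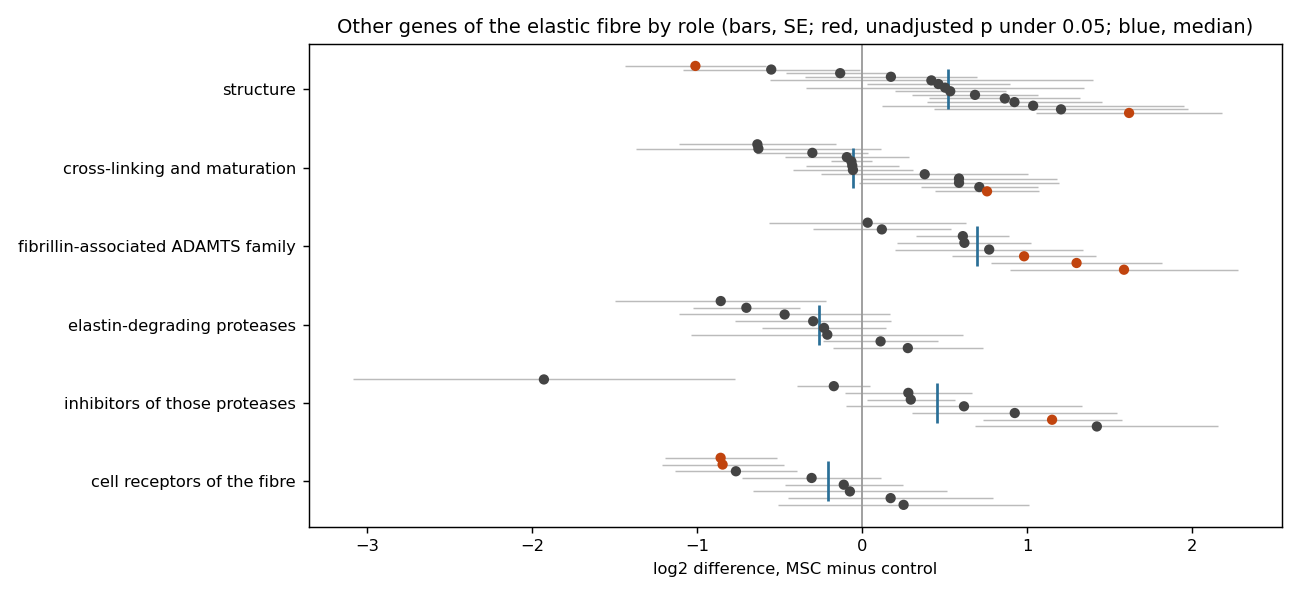
Log2 difference, MSC minus control, of the 58 other elastic fibre genes tested, by role (points, with SE bars from limma); red points have an unadjusted p under 0.05 and blue lines are medians. The points of the ADAMTS family lie above 0, from 0.03 for ADAMTS17, with a median of 0.69, and 6 of the 8 receptors lie below 0.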

How the data were processed

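The deposited table holds RPKM values made by the authors, per the file headers, for 30477 genes in 9 libraries. The aligner and counter are not given in the sources used here, and of the builds susScr11 and mm10, both in the submitters' processing notes, neither has a stated role, so coordinates are those of the table. RPKM times gene length plus 1 gave whole reads per library within 0.01 (100% of values, largest deviation 4.56e-08). The filter kept 17884 genes, those with 15 or more reads overall and a scaled count of 10 or more in 3 libraries. RPKM was divided by trimmed-mean factors over these genes (trims 0.3 and 0.05). The model was limma-trend (limma 3.58.1, R 4.3.3) on log2(scaled RPKM + 1), pseudocount 1, with Benjamini-Hochberg adjusted p and a threshold of 0.05; all 9 libraries entered and there was no covariate. It was tested on simulated data. For a gene 2 kilobases long, 1 read equals 0.0105 to 0.0295 RPKM, a precision that covers counting error only.

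The 10 genes, the lists of other genes and the markers were chosen with earlier results of these data known. Named by rule were all 10 genes; in each role list, the 3 with the largest absolute difference at a mean of at least 1 scaled RPKM; and the 5 genes most like ELN, and like the gene farthest from it. Of 14012 genes without a symbol, 785 took one from a gene name table. The 23 alternatives covered scaling, filters, pseudocounts, limma-voom, lanes, subsets, each library left out, and lane or replicate number in the model. Reads of overlapping genes may be shared, since the strand setting is not given. CTSK, TIMP2, PI3 and SDC4 had no row of that symbol, and FBN3, EMILIN3, MMP7, ELANE and SERPINA1 were below the filter.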

Additional observations from a re-analysis of the deposited data

Results flagged for a closer look

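Of 47 values tested in the 6 MSC libraries (the 10 elastic fibre genes, the 18 other named genes, their ratios and the marker sums), 4 had 1 library far from the other 5; chance gives about 1 in 20, or 2.35. None of the 10 elastic fibre genes was among them, but the rule looks for 1 library. It can miss genes such as ELN, in which MSC 5 and MSC 6 both stood far above the rest. A2M, the protease trap, had a log2 level of 7.02 in MSC 5, with the next library at 3.02. The summed venous endothelium markers had a log2 level of 5.86 in MSC 5, with the next at 4.82. The summed Schwann cell and nerve markers had 5.71 in MSC 5, with the next at 3.56. The summed skeletal muscle markers had 7.51 in MSC 6, with the next at 1.99, almost all of it from ACTA1, which overlaps CCSAP. MSC 5 and MSC 6 are also the libraries with the highest ELN, LTBP2, LTBP4, MFAP4, LOXL1 and EFEMP2.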

How the results depend on the processing

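The median log2 difference of the 10 genes stayed positive in all 23 alternatives, from 0.74 to 1.76, against 1.38. The lowest came from the replicate block (replicate number as a block), which called 0 genes. Replicate numbers 4 to 6 have no control, so MSC 4, MSC 5 and MSC 6 gave nothing to the difference in that fit. The shared numbers do not pair the libraries, since deviations of same-numbered libraries correlated at 0.22, −0.52 and −0.14. Of the 3 MSC libraries with a shared number, 1 matched its own number best. The number of the 10 with all MSC libraries above all controls, 3 as reported, was 0 with RPKM as deposited and 5 in lanes 5 and 6 alone, where MFAP5 and LOX joined. Leaving out each library gave 3 to 5 (5 without control 1, where FBLN5 and MFAP5 joined). With fewer libraries, full separation is easier to reach. No share over all genes is given for these subsets, so nothing is read from their counts. Calls over all genes were 2 higher and 2 lower in lanes 5 and 6 alone. With each library left out they ran from 0 to 1 higher and from 0 to 21 lower, the most without control 1 (1 higher and 21 lower), then without MSC 3 (1 and 2) and MSC 2 (0 and 1); the cause was not tested. ELN ran from 2.66 to 4.87 over the alternatives. FBN1 and LOX were highest with lane as a covariate, at 1.49 and 0.83, a fit in which the libraries of lane 7 gave nothing to the difference. Sign changes were limited to LOX (4 settings), EFEMP2 (2, with −0.03 under the replicate block) and LTBP4 (1). The other elastic fibre genes had 0 calls in every setting, and their median of 0.21 ran from 0.02 to 0.31; for the 18 named, 413 values kept direction and side of the threshold, and ATP7A reversed in lanes 5 and 6 alone (0.00814, limma adjusted p of 0.987). Factors over all genes, and leaving out control 2 and MSC 6, were chosen after seeing the data. With 3 controls and uneven small RNA, differences that fail the test are not shown to be absent.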
